A study of Mus musculus with 10 samples.

Results

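The transcripts of 10 transcription factor genes linked to T cell exhaustion (Tox, Tox2, Nr4a1, Nr4a2, Nr4a3, Ikzf2, Egr1, Egr2, Egr3 and Rbpj) were followed in tumor-infiltrating CD8+ T cells. They were chosen by name, 10 of 34932 annotated genes, of which 27420 had a count. The cells were Pmel CD8+ T cells, whose transgenic receptor recognizes gp100 of melanocytes and melanoma. Before transfer they were stimulated for 24 h with the peptide and IL-2 (10 IU/mL) and transduced with the MIT retrovirus, which marks cells with Thy1.1, either empty (MIT-Empty, 5 mice) or carrying the mouse BATF reading frame (MIT-BATF, 5 mice). Both groups then grew in IL-2 (50 IU/mL) with IL-7 and IL-15 (10 ng/mL of either cytokine) and were transferred into CD45.1 mice of 8 to 12 weeks bearing B16-F10 melanoma. At day 7, 2000 live Thy1.1+ cells per mouse were sorted from the tumor, and SMART-Seq2 libraries were sequenced. The comparison asks how RNA of these factors differed with the BATF vector, in cells that had all been activated, transduced and kept in cytokines before transfer. The CD45.1 recipients were chosen so that transferred CD8+ T cells could be told apart from those of the host.

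Exhaustion is the state that T cells enter under lasting antigen exposure, with high inhibitory receptors and reduced function. Signals from the T cell receptor activate calcineurin and NFAT. Within the early response these induce members of the EGR zinc finger and NR4A orphan nuclear receptor families. With lasting signals they also induce TOX, an HMG-box protein that supports the chromatin state of exhausted cells. BATF, an AP-1 family protein, binds DNA with JUN partners and IRF4 near many of the same genes.

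The gene carried by the vector did not separate the labels. Batf was at 12.4, 22.5, 23.5, 24.7 and 26.4 CPM (counts scaled to library size) in replicates 1 to 5 labelled MIT-BATF. It was at 13.4, 19.8, 36.7, 24.8 and 50.7 CPM in those labelled MIT-Empty, and the groups overlapped (log2 fold change -0.41, adjusted p = 0.522 from edgeR). Whether RNA of the vector's reading frame was counted as Batf is not known, so each direction below is that of libraries so labelled. Library totals ran from 6534472 to 34102086 counts. In each group the counts of replicate 4 lay within those of replicate 2, and those of replicate 5 within those of replicate 3. The nested libraries exceeded the containing ones in at most 0.661% of genes, against at least 3.54% for any other pair. If the nested counts are shared reads, tests over 10 libraries give p-values that are too small and intervals that are too narrow. Each edgeR call is therefore given again with shared reads counted once, that is with the contained counts taken off the containing library. The deposited files also carry sample numbers other than the replicate numbers of the labels, and no source used here explains them, so how alike the 5 libraries of a group were in handling is not known. Genes of the mitochondrial genome took 33.2% of the counts of MIT-BATF replicate 1, and 11.5% to 23.1% in the other libraries. CD8 T cell markers such as Cd3d and Cd8a were present throughout. Their summed level was 2816 to 4768 CPM under MIT-BATF and 3190 to 5002 CPM in MIT-Empty. Of these markers 0 of 9 passed edgeR's test (0 at an unadjusted p under 0.05, and 0 by DESeq2). Over all genes tested by edgeR, 2133 of 11781 had an unadjusted p under 0.05.

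RNA of other cells was present and differed between the groups. Melanoma markers summed to 14.4 to 29.4 CPM under MIT-BATF and 39.7 to 1735 CPM in MIT-Empty, and 6 of 6 tested were lower in MIT-BATF (2 of 5 with shared reads counted once). The most abundant, Tyrp1, reached 752 CPM in MIT-Empty replicate 4. Macrophage markers summed to 25.5 to 84.5 CPM and 43.7 to 290 CPM, with 4 of 11 lower, Lyz2 the most abundant (1 of 10 with shared reads counted once). Dendritic cell markers summed to 56.9 to 95.1 CPM and 111 to 352 CPM, with 2 of 4 lower (Cd74, the most abundant, and H2-Aa) and Xcr1 higher, which also passed with shared reads counted once. B cell markers, led by Ighm, summed to 34.6 to 57.3 CPM and 70.8 to 159 CPM, with Ighm lower and Cd79b higher of 2 tested, of which Ighm alone passed with shared reads counted once. Sox10, Mitf, Adgre1, Ms4a1 and Foxp3 were at 0 in at least 1 library, and Cd209a in all 10. CD4 and regulatory T cell markers, which include Foxp3, summed to 2.83 to 7.32 CPM under MIT-BATF and 1.10 to 4.66 CPM in MIT-Empty. NK cell markers, led by Eomes, neutrophil markers, led by Cxcr2, stromal markers, led by Pecam1, and erythroid markers, led by Hba-a2, gave 0 calls among 4, 1, 1 and 4 genes tested by edgeR, with 2, 0, 0 and 1 at an unadjusted p under 0.05. DESeq2, which gave an adjusted p for 4, 3, 5 and 5 of these markers, called 0, 1, 3 and 0. The part of these RNAs in the results below was not tested. In bulk libraries, fewer cells with a transcript and less transcript per cell cannot be told apart.

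Of the 10 factors, 9 had enough counts for the test, and under the label MIT-BATF 3 fell (Tox, Ikzf2 and Nr4a3) and 1 rose (Egr1). The test was edgeR's quasi-likelihood test, adjusted by Benjamini-Hochberg over all 11781 genes tested. Of all genes tested 4.58% were called, 2.43% lower and 2.16% higher. An unadjusted p under 0.05 from edgeR was reached by 5 of the 9 factors, against 2133 of all 11781 genes. With shared reads counted once, 2 of 9 fell (Tox and Ikzf2) and 0 rose, against 1.26% of all genes called. In that fit 4 of 9 had an unadjusted p under 0.05 from edgeR, against 1184 of 11131 genes. DESeq2 then called 3, with Egr1 added, against 2.57% of all genes. Without MIT-BATF replicate 1, the library with the high mitochondrial share, edgeR called 4 factors with the deposited counts, against 6.24% of all genes. The groups did not overlap in CPM for Tox, Ikzf2 and Nr4a3, or for Tox and Ikzf2 with shared reads counted once, with MIT-BATF below MIT-Empty each time. That held for 3.17% and 1.57% of all genes, and 6.45% and 3.19% did not overlap in either direction.

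**Figure D1:**
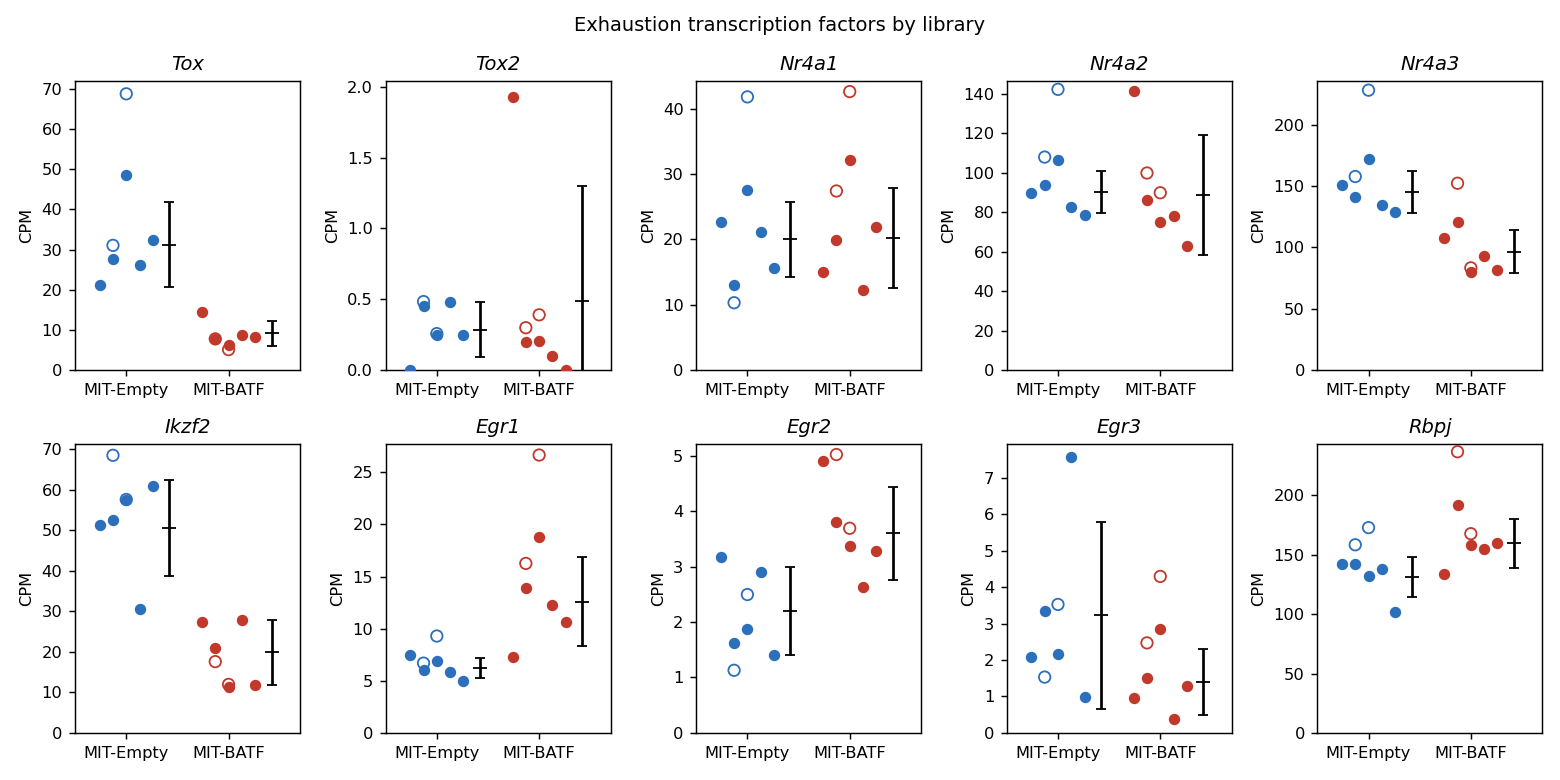
Level of each factor in CPM (linear axes from 0) in 5 MIT-Empty libraries (blue) and 5 MIT-BATF libraries (red), replicates 1 to 5 from left to right. Filled points are counts as deposited, open points replicates 2 and 3 with shared reads counted once, and bars the mean and SD of the filled points. Tox sits at 6.32 to 14.5 CPM under MIT-BATF and 21.3 to 48.7 CPM in MIT-Empty with no overlap, while the Nr4a1 and Nr4a2 points of both groups lie in the same range.

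Tox had the lowest fold change of the 9 factors tested. The gene lies on chromosome 4 of GRCm38 (mm10) from 6686353 to 6991557 on the minus strand. In replicates 1 to 5 labelled MIT-Empty Tox was at 21.3, 27.7, 48.7, 26.1 and 32.4 CPM. In those labelled MIT-BATF it was at 14.5, 7.85, 6.32, 8.79 and 8.34 CPM. Every MIT-BATF library lay below every MIT-Empty library. The means were 9.17 ± 3.15 and 31.2 ± 10.5 CPM (SD over n = 5 libraries), a log2 fold change of -1.79 (standard error 0.25, 95% interval -2.33 to -1.25, adjusted p = 0.00123 from edgeR). With shared reads counted once the log2 fold change was -1.997 (adjusted p = 0.00795 from edgeR), and it passed without any 1 library, with adjusted p between 0.00577 and 0.0285. With the deposited counts it did not pass without the contained libraries (log2 fold change -1.77, adjusted p = 0.0622) or without the containing ones (-1.33, adjusted p = 0.135 from edgeR). MIT-BATF replicate 1, with the high mitochondrial share, had the highest Tox level of its group. MIT-Empty replicate 4, with the most melanoma RNA, had the second lowest of its own. Tox passed without MIT-Empty replicates 2 and 4, at a log2 fold change of -1.91 (adjusted p = 0.00595 from edgeR). Nearly all of its counts fell on 1 coding transcript, Tox-201, with 93.6% ± 4.90 in MIT-BATF and 98.8% ± 1.21 under MIT-Empty (SD over n = 5 libraries).

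The other TOX family genes were low or did not pass the test. Tox2, on chromosome 2, had 22, 5, 9, 1 and 0 counts in MIT-BATF and 0, 9, 6, 3 and 3 in MIT-Empty, and was left out of the test by the filter on low counts. Of its 37 counts in MIT-BATF, 22 were in replicate 1. Libraries at 0 allow up to 0.161 CPM in MIT-BATF replicate 5 and 0.367 CPM in MIT-Empty replicate 1, which covers counting error only. Tox3 was at most 0.0876 CPM under MIT-BATF and 0.0828 CPM in MIT-Empty. Tox4, which is broadly expressed, was at 25.5 ± 2.29 and 21.9 ± 5.02 CPM (SD over n = 5 libraries), with a log2 fold change of 0.21 (95% interval -0.14 to 0.57, adjusted p = 0.561 from edgeR).

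Ikzf2, which encodes Helios, an Ikaros family zinc finger factor found in regulatory T cells and in exhausted CD8+ T cells, also fell. It lies on chromosome 1 from 69531214 to 69687245 on the minus strand. In MIT-Empty it was at 51.3, 52.6, 57.4, 30.5 and 60.9 CPM in replicates 1 to 5. In MIT-BATF it was at 27.3, 21.0, 11.4, 27.8 and 11.7 CPM. The groups did not overlap, although MIT-Empty replicate 4, the library with the most melanoma RNA, stood close to MIT-BATF replicates 1 and 4. The means were 19.9 ± 8.03 and 50.6 ± 11.9 CPM (SD over n = 5 libraries), a log2 fold change of -1.36 (standard error 0.27, 95% interval -1.93 to -0.79, adjusted p = 0.00927 from edgeR). With shared reads counted once it was -1.47 (adjusted p = 0.0182 from edgeR). That call was lost without MIT-BATF replicate 2 (adjusted p = 0.0578) and without MIT-Empty replicate 2 (0.0566), at log2 fold changes of -1.43 and -1.39. Of 4 CD4 and regulatory T cell markers, which summed to at most 7.32 CPM, 2 had enough counts for edgeR's test. They gave no call (0 passed edgeR, 0 at an unadjusted p under 0.05, and 0 by DESeq2). At such levels a call was unlikely, and the part of regulatory T cell RNA in the Ikzf2 levels was not tested. Most Ikzf2 counts were on the coding transcript Ikzf2-201, with 73.0% ± 8.53 and 65.4% ± 6.47 (SD over n = 5 libraries). Ikzf2-205, annotated as a retained intron, held 26.2% and 26.9%.

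The Ikaros genes Ikzf1, Ikzf3, Ikzf4 and Ikzf5 did not pass in either fit (0 of 4 by edgeR with 0 at an unadjusted p under 0.05, and 0 by DESeq2). Ikzf1, encoding Ikaros and the most abundant of them, was at 70.7 ± 8.97 CPM under MIT-BATF and 85.2 ± 4.82 CPM under MIT-Empty (SD over n = 5 libraries), with a log2 fold change of -0.27 (95% interval -0.55 to 0.01). Ikzf3, which encodes Aiolos, had a log2 fold change of 0.34. Those of Ikzf4 and Ikzf5 were 0.26 and 0.12.

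The NR4A receptors, which bind DNA as immediate early products of antigen receptor signaling, gave 1 call among 3 genes with the deposited counts. Nr4a3 (chromosome 4 from 48045153 to 48086447) was at 150, 141, 172, 134 and 128 CPM in MIT-Empty and 108, 121, 79.6, 93.1 and 81.9 CPM in MIT-BATF. All MIT-BATF libraries were lower in CPM, with replicate 2 at 121 CPM nearest to the MIT-Empty range. In TPM, which accounts for transcript length, the groups overlapped, at 8.23 to 18.4 in MIT-BATF and 14.7 to 25.0 in MIT-Empty. The log2 fold change was -0.59 (standard error 0.15, 95% interval -0.91 to -0.27, adjusted p = 0.0371 from edgeR). With shared reads counted once the log2 fold change was -0.62 with an adjusted p of 0.224 from edgeR and 0.143 from DESeq2, and MIT-BATF replicate 2 (152 CPM) overlapped MIT-Empty. Of the deposited libraries, leaving out MIT-BATF replicate 1 or 2 kept the call. Leaving out any of the other 8 lost it, with adjusted p between 0.0505 and 0.101.

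Nr4a1, which encodes Nur77 (chromosome 15 from 101254269 to 101274795), was at 22.7, 13.1, 27.6, 21.1 and 15.7 CPM in MIT-Empty. It was at 15.0, 19.9, 32.1, 12.3 and 21.8 CPM in MIT-BATF. The groups covered the same range, and replicate 3 was the highest in both. Its log2 fold change was 0.02 (95% interval -0.52 to 0.57, adjusted p = 0.976 from edgeR), and its sign turned in 6 of 21 alternatives. Nr4a2 (chromosome 2 from 57106830 to 57124003, minus strand) was at 89.6, 93.7, 106, 82.7 and 78.8 CPM in MIT-Empty. In MIT-BATF it was at 141, 86.3, 74.9, 78.0 and 62.8 CPM, with the high value in replicate 1. Its log2 fold change was -0.03 (95% interval -0.44 to 0.39, adjusted p = 0.966 from edgeR), with the sign turned in 7 of 21 alternatives. These intervals leave room for changes of Nr4a1 and Nr4a2 in either direction, and whether Nr4a3 differed from its relatives in its response was not tested.

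The windows before the RefSeq start sites of the Nr4a genes are shown because all 3 share one feature. It was picked from several motifs searched, so the shares given with it are not a test. Each 250-base window held 4 matches to TGACG, the core of the cyclic AMP response element, on either strand. Of 32851 mouse promoter windows of that length, 17.8% held at least 1 match and 0.137% held 4 or more. The matches are in capitals, as TGACG or its reverse complement CGTCA. The sequences are from RefSeq (GRCm38.p6), 5′ to 3′ on the strand of the gene. For Nr4a3 the 98 bases before the first annotated GENCODE exon are shown, with 3 of its 4 matches. The other 152 bases of that window lie in annotated exons and hold the remaining match.
Nr4a1, chr15:101266596-101266845, plus strand: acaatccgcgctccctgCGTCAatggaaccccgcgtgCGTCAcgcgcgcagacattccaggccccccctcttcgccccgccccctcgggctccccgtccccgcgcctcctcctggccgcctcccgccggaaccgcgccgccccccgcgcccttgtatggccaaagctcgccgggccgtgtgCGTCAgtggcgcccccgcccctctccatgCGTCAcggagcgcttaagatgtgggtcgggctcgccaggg
Nr4a2, chr2:57124004-57124253, minus strand: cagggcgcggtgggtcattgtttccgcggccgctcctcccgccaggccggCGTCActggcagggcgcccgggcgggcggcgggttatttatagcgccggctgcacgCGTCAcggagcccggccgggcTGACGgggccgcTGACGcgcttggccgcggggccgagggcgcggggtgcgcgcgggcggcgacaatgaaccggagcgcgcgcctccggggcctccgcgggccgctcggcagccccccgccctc
Nr4a3, chr4:48045055-48045152, plus strand: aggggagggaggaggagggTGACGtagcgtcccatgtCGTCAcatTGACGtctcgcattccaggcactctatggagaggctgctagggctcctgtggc
The AP-1 site TGANTCA, found in 6.75% of all windows, the full element TGACGTCA, found in 1.55%, and TTTC followed 4 bases later by TGANTCA, a composite site of BATF and IRF factors found in 0.0974%, had no match on either strand in the windows of these genes. The same held for the windows of Tox2, Egr2 and Rbpj, so that 6 of the 10 factors were searched. The EGR, RBPJ and NBRE motifs searched had no match in the Nr4a windows. The NFAT motif GGAAA, found in 55.6% of all windows, had 1 match, in the window of Nr4a2. TGACG also forms part of the full element, and a match is a description of the letters and not a bound site.

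**Figure D2:**
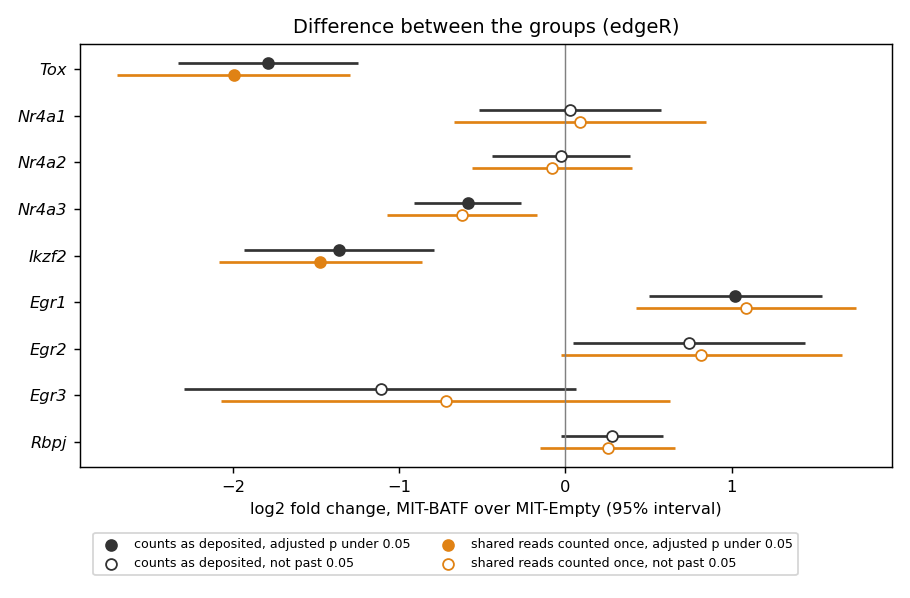
The 9 factors tested, by log2 fold change of MIT-BATF over MIT-Empty, with 95% intervals from edgeR, for counts as deposited (black) and with shared reads counted once (orange). Filled points passed an adjusted p of 0.05. Tox (-1.79) and Ikzf2 (-1.36) are filled in both, and Nr4a3 (-0.59) and Egr1 (1.02) with the deposited counts.

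The EGR zinc finger factors, which are induced within minutes of receptor signaling, gave 1 call, that of Egr1, among the 3 listed. Egr1, on chromosome 18, was at 7.45, 6.02, 6.86, 5.81 and 4.97 CPM in MIT-Empty. In MIT-BATF it was at 7.27, 13.9, 18.8, 12.3 and 10.7 CPM. MIT-BATF replicate 1 lay within the MIT-Empty range and the other 4 above it. The log2 fold change was 1.02 (standard error 0.24, adjusted p = 0.0272 from edgeR). With shared reads counted once it was 1.08, which did not pass edgeR (adjusted p = 0.126) and passed DESeq2 (0.0416). That edgeR fit passed without MIT-BATF replicate 1 (log2 fold change 1.25, adjusted p = 0.0489). Of the deposited libraries, leaving out MIT-BATF replicate 1, MIT-BATF replicate 5 or MIT-Empty replicate 1 kept the call. Leaving out any of the other 7 lost it, with adjusted p between 0.0503 and 0.0786.

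Egr2, on chromosome 10 from 67535475 to 67542188, encodes a factor of T cell anergy, and its levels were low. It was at 4.91, 3.80, 3.38, 2.64 and 3.28 CPM under MIT-BATF and 3.18, 1.62, 1.88, 2.90 and 1.41 CPM in MIT-Empty. The groups overlapped, and the log2 fold change was 0.74 (95% interval 0.05 to 1.44, adjusted p = 0.239 from edgeR). With shared reads counted once it was 0.82, and the interval included 0 (-0.03 to 1.66, adjusted p = 0.495 from edgeR). Egr3 lies on chromosome 14 from 70077203 to 70082614. Its level was 0.964, 1.497, 2.85, 0.391 and 1.29 CPM in MIT-BATF. In MIT-Empty it was at 2.08, 3.34, 2.17, 7.58 and 0.994 CPM. The highest Egr3 level was in MIT-Empty replicate 4, the library with the most melanoma RNA, and the lowest in MIT-BATF replicate 4, where it rests on 4 counts. Its log2 fold change was -1.11 (95% interval -2.29 to 0.06, adjusted p = 0.301 from edgeR). It was -0.57 without MIT-Empty replicate 4, -0.27 without MIT-Empty replicates 2 and 4, -0.72 with shared reads counted once and -0.0877 with both shared reads counted once and MIT-Empty replicate 4 left out. Egr3-202, annotated as a retained intron, held 96.7% of Egr3 counts in MIT-BATF and 77.9% in MIT-Empty. Egr4 was at most 0.0925 CPM under MIT-BATF and 0.245 CPM in MIT-Empty. The EGR corepressors Nab1 and Nab2 had log2 fold changes of -0.20 and 0.02, and 0 of 2 passed edgeR (0 at an unadjusted p under 0.05, and 0 by DESeq2).

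Rbpj, the DNA-binding partner of Notch, lies on chromosome 5 from 53466152 to 53657362. It was at 134, 192, 158, 155 and 160 CPM under MIT-BATF and 142, 143, 132, 138 and 102 CPM in MIT-Empty. In 4 of 5 MIT-BATF libraries it was above every MIT-Empty library, and in replicate 1 it was not. The log2 fold change was 0.28 (95% interval -0.02 to 0.58, adjusted p = 0.320 from edgeR). Of 15 Notch receptors, cofactors and targets tested, 0 passed edgeR and 0 passed DESeq2. By edgeR 3 had an unadjusted p under 0.05, against 2133 of all 11781 genes. The most abundant of them were Psenen and Adam10, which encode a gamma-secretase subunit and the protease that cuts Notch before it, at log2 fold changes of 0.10 and -0.23. The Rbpj pseudogenes Rbpj-ps3 and Rbpj-ps1 had 0 and 2 counts over all libraries, against 26956 for Rbpj.

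Levels of different genes were compared in TPM, which accounts for transcript length. In MIT-BATF the order by mean TPM was Nr4a2 (17.7), Rbpj (16.2), Nr4a3 (12.9), Nr4a1 (6.54), Egr1 (2.89), Ikzf2 (2.42), Tox (1.53), Egr2 (0.855), Egr3 (0.290) and Tox2 (0.191). Neighbours in this order overlapped over the 5 libraries, with the exception of Egr2, which lay below Tox in every library. In MIT-Empty the order was Nr4a3 (17.8), Nr4a2 (17.4), Rbpj (12.4), Ikzf2 (7.20), Nr4a1 (6.12), Tox (4.52), Egr1 (1.32), Egr2 (0.864), Egr3 (0.586) and Tox2 (0.174). Here Rbpj lay below Nr4a2 and Egr1 below Tox without overlap. With shared reads counted once only the gap between Tox and Egr1 in MIT-Empty was free of overlap. Ikzf2 and Tox thus stood above Egr1 in MIT-Empty and below it in MIT-BATF by mean TPM.

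Several factors were spread over more than 1 transcript, and the split is Salmon's estimate. Shares are means over 5 libraries with shared reads counted once. For Nr4a2, Nr4a2-206, annotated as a target of nonsense-mediated decay, held 60.4% ± 13.5 of counts in MIT-BATF and 67.1% ± 5.14 in MIT-Empty, and the coding Nr4a2-201 held 35.9% ± 12.1 and 31.8% ± 5.04 (SD over n = 5 libraries). For Nr4a3 the coding transcripts Nr4a3-203 and Nr4a3-201 held 71.2% and 27.4% in MIT-BATF and 72.4% and 26.8% in MIT-Empty. Nr4a1-201 held 99.0% and 97.2% of Nr4a1 counts, and Egr1-202 held 92.5% and 94.4% of Egr1 counts. Rbpj-208 held 84.1% and 80.7%, and Rbpj-201 held 9.54% and 14.2%. The counts of Egr2 moved between Egr2-201, Egr2-202 and Egr2-203 from library to library, with Egr2-204 at 10.9% in MIT-Empty. Of the few Tox2 counts, 35 in MIT-BATF and 13.6 in MIT-Empty fell on Tox2-202, with the rest on Tox2-203 and Tox2-205.

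Within groups the factors were compared for movement together, as deviations of log2 CPM from the group mean over 10 libraries with shared reads counted once. Of 45 pairs, 0 passed an exact permutation test of Pearson's r after Benjamini-Hochberg adjustment (lowest adjusted p = 0.328), with 3 at an unadjusted p under 0.05. The same count of 0 held for Spearman's rho. The highest r were those of Tox2 with Nr4a2 (r = 0.72, rho = 0.47), Nr4a1 with Egr3 (r = 0.72, rho = 0.76) and Nr4a1 with Egr1 (r = 0.69, rho = 0.68). Their adjusted p was 0.394 each from the exact permutation test. Without the 2 libraries farthest from the median of the first gene, r was 0.11, 0.80 and 0.80, so the first of these rests on the 2 libraries left out. The lowest r was that of Ikzf2 with Egr3 (r = -0.82, rho = -0.89, p = 0.00729 and adjusted p = 0.328 from the exact permutation test), which was -0.61 without the 2 farthest libraries. Nr4a1 with Ikzf2 had r = -0.63 (rho = -0.65) and Ikzf2 with Egr1 had r = -0.46 (rho = -0.33).
Tox and Ikzf2, both lower in the libraries labelled MIT-BATF, had r = 0.52 (adjusted p = 0.527 from the exact permutation test). Tox with Nr4a2 had r = 0.66, which became -0.38 without the 2 libraries farthest in Tox. Nr4a2 with Nr4a3 had r = 0.66 and 0.60 without such libraries (adjusted p = 0.394 from the exact permutation test).

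**Figure D3:**
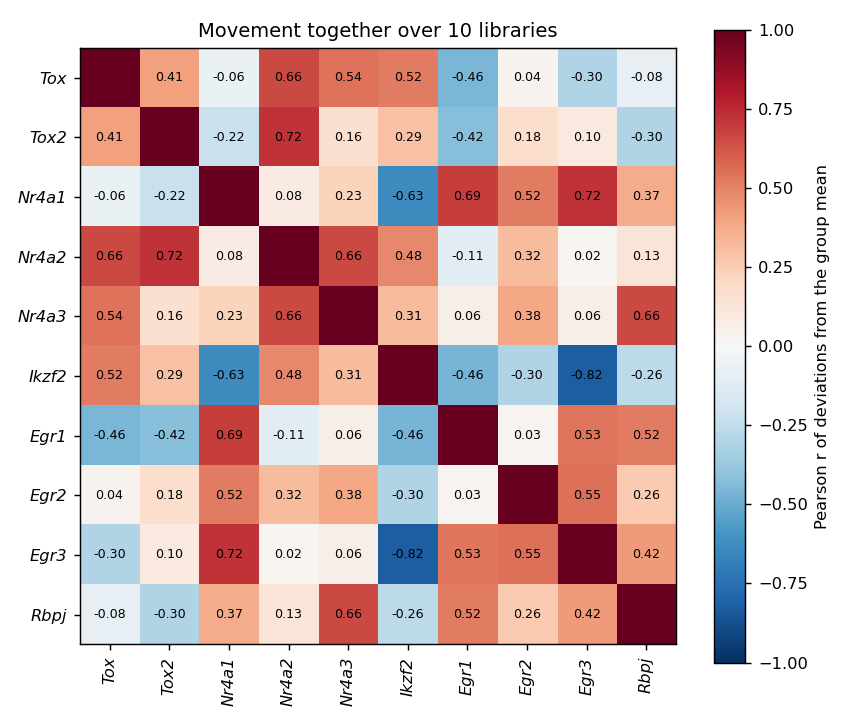
Pearson's r for each of 45 pairs of factors, from log2 CPM deviations from the group mean over 10 libraries with shared reads counted once, with red for positive and blue for negative values. Nr4a1, Egr1 and Egr3 share positive values and Ikzf2 with Egr3 is the most negative (-0.82), and 0 pairs passed the adjusted test.

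The genes whose deviations from the group mean followed those of single factors most closely were named by the same r. This is a description over 10 libraries, among 2709 genes, and leaves out differences between the groups. The libraries differed in depth, and how alike they were in handling is not known. The part of depth and handling in these r was not tested. For Nr4a1 these were Hspa1a (0.95), Wdr26 (0.92) and Hsph1 (0.92), of which Hspa1a and Hsph1 encode heat shock proteins. Hspa1a has a near-identical copy, Hspa1b, which can share reads with it. Hspa1a was at 18.0, 45.1, 62.3, 20.1 and 25.8 CPM under MIT-BATF and 40.8, 19.4, 59.5, 39.9 and 23.9 CPM in MIT-Empty, with shared reads counted once. Nr4a1 on that scale was at 16.1, 27.4, 42.6, 13.2 and 23.5 CPM and 24.4, 10.3, 41.8, 22.8 and 16.8 CPM. Both genes were highest in replicate 3 of each group. For Tox they were Itga4 (0.93), Tm6sf1 (0.90) and Itgb1 (0.85), where Itga4 and Itgb1 encode the chains of the integrin VLA-4. Within the groups, Tox and these genes were all highest in MIT-BATF replicate 1 and MIT-Empty replicate 3, and r without those libraries was not tested. Between the groups Tm6sf1 went the other way from Tox. It was at 45.4 to 81.8 CPM under MIT-BATF and 24.0 to 40.6 CPM in MIT-Empty, with shared reads counted once. For Egr2 they were Arl8b (0.97), Azin1 (0.92) and Papola (0.90).

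Genes upstream of these factors and other immediate early genes, of receptor signaling or tissue dissociation, were counted next. The tumors had been digested before the sort. The part of that step in RNA of immediate early genes, the Egr and Nr4a genes among them, was not tested. Of all genes, edgeR called 4.58% (1.26% with shared reads counted once) and DESeq2 8%. An unadjusted p under 0.05 from edgeR was reached by 2133 of 11781 genes. Of 10 calcineurin and NFAT genes, 0 passed edgeR in either fit and 0 passed DESeq2, with 3 at an unadjusted p under 0.05 by edgeR, and their median log2 fold change was 0.10 against 0.01 over all genes. Nfatc2, encoding NFAT1, was at 8.15 ± 3.00 CPM under MIT-BATF and 4.34 ± 1.41 CPM under MIT-Empty (SD over n = 5 libraries), with a log2 fold change of 0.90 (95% interval 0.21 to 1.58, adjusted p = 0.140 from edgeR). Nfatc1 had a log2 fold change of 0.18, Nfatc3 of 0.05 and Nfat5 of -0.41. Of 20 other immediate early genes tested, 1 was higher in MIT-BATF and 0 were lower, with a median of 0.09. It was Dusp2, a nuclear phosphatase of MAP kinases, at 233 ± 21.3 CPM under MIT-BATF and 127 ± 9.26 CPM under MIT-Empty (SD over n = 5 libraries), with a log2 fold change of 0.87 (adjusted p = 0.00123 from edgeR, and 0.0222 with shared reads counted once). DESeq2 called 3 of 21.

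Calls were made in each of 3 further lists. Of 13 anergy genes placed under EGR2 and EGR3, 0 rose and 1 fell, with a median of -0.09. The gene was Nrn1, which encodes neuritin, a protein of anergic T cells (log2 fold change -0.96, adjusted p = 0.0199 from edgeR, and 0.112 with shared reads counted once). Of 12 surface receptors and ectoenzymes linked to TOX and NR4A, Ctla4 rose (0.72) and Cd200 (-1.78) and Btla (-1.28) fell, with a median of 0.16. Of these 3, Cd200 passed edgeR with shared reads counted once, at an adjusted p of 0.0334. Of 13 other factors of progenitor and exhausted cells, Lef1 (1.00) and Maf (1.90) rose and 0 fell, and Maf passed edgeR with shared reads counted once, at an adjusted p of 0.00343. The shares of all genes called were 4.58% and 1.26% in the respective fits. The melanoma markers and Ighm were lower in the same libraries.

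**Figure D4:**
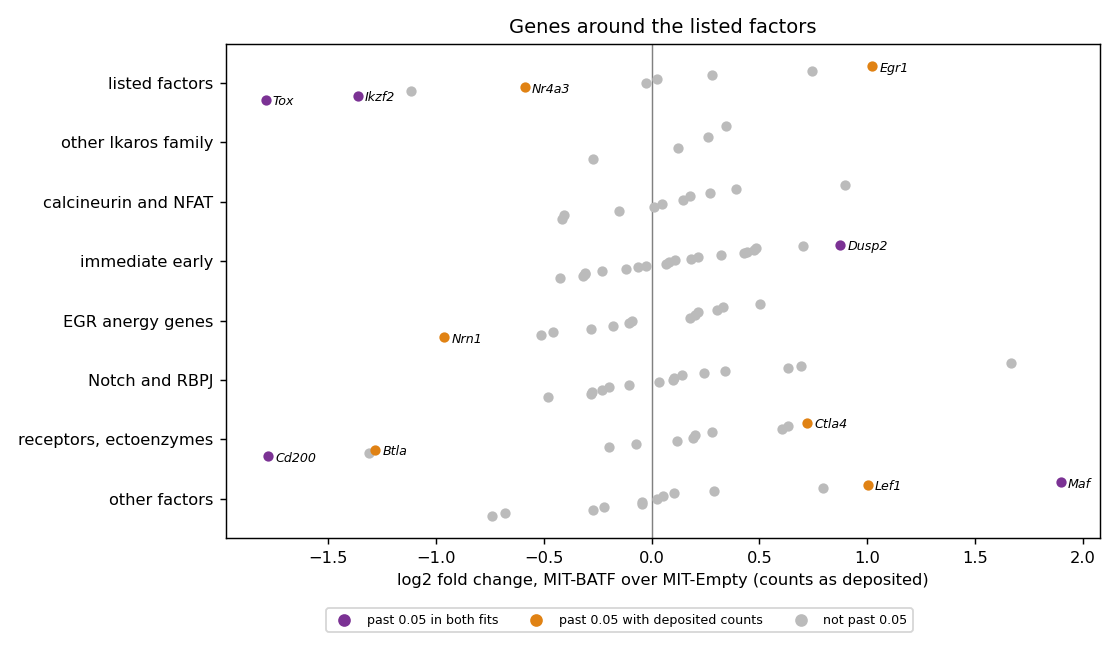
Log2 fold change of MIT-BATF over MIT-Empty (counts as deposited, edgeR) of each tested gene among the listed factors and of the lists around them, 1 point per gene. Purple points passed an adjusted p of 0.05 in both fits, orange points with the deposited counts, and grey points did not pass. Tox, Ikzf2, Dusp2, Cd200 and Maf are purple, and the calcineurin and NFAT, Ikaros and Notch rows hold grey points only.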

How the data were processed

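RNA was measured in 10 libraries, grouped and numbered by their labels, each described by the authors as from the cells of 1 mouse. Whether the containing libraries hold reads of 1 mouse only is not known. The authors ran nf-core/rnaseq on mm10 and quantified with Salmon (version not given in the sources used here). Their files, as deposited, contain estimated counts and TPM per transcript. Effective lengths, also deposited by the authors, were used for length offsets.

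Of 112092 transcripts, 305 had no match in GENCODE (GRCm38) and were left out, with 0.0617% to 0.089% of counts. The estimated counts were added up by gene and rounded. Strand was not used, and among the 34932 genes quantified none overlaps a listed factor. Overlap with annotated genes that were not quantified was not tested. The test was edgeR 4.0.16 (TMM, quasi-likelihood, filterByExpr, condition only) in R 4.3.3 at an adjusted p of 0.05, with DESeq2 1.42.0 as an alternative. CPM use TMM-scaled library sizes. Correlations used log2(CPM + 0.5), 14400 within-group permutations and Python 3.11.15. Nested libraries were those exceeding another in fewer than 1% of genes (at least 5 counts), among 45 pairs, and values under 0 after subtraction were set to 0. Scripts were tested on simulated data.

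The factors, the 20 gene lists and the other settings tried were chosen with earlier results of these data known. Leaving out each library with shared reads counted once was added after seeing the data. Genes named are the factors, other TOX, Ikaros, EGR and NFAT genes, list members past the threshold (at most 5 by p, otherwise the 2 most abundant), the most abundant marker of each other cell type, the 3 genes most like Tox, Nr4a1 and Egr2 (mean log2 CPM of at least 5), and transcripts with at least 10% of a factor's counts. Nab1, Nab2, Cd79b, Cd3d, Cd8a, Xcr1, H2-Aa and the markers listed at 0 were named after their values were seen.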

Additional observations from a re-analysis of the deposited data

Results flagged for a closer look

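In 40 groups of 5 libraries examined for a library far from the others, 5 stood out. The groups include the same libraries as deposited and with shared reads counted once, so they are not independent. The nominal chance rate of about 1 in 20 is therefore no yardstick for the 5. MIT-Empty replicate 3 was high for Tox (68.7 CPM) and for Nr4a3 (228 CPM) with shared reads counted once. MIT-BATF replicate 1 was high for Tox2, at 1.93 CPM as deposited and 2.07 CPM with shared reads counted once, which rest on 22 counts. MIT-Empty replicate 5 was low for Rbpj, at 102 CPM as deposited.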

How the results depend on the processing

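Tox and Ikzf2 stayed lower in MIT-BATF in all 21 alternatives and passed the threshold in 19. They did not pass without the contained libraries (replicates 4 and 5; adjusted p = 0.0622 and 0.0543 from edgeR) or without the containing libraries (replicates 2 and 3; 0.135 and 0.351). Nr4a3 and Egr1 kept their direction in 21 and passed in 6 and 8. Egr2, Egr3 and Rbpj kept their direction and did not pass. The number of factors called, 4, became 2 with shared reads counted once, 0 without the contained and 0 without the containing libraries, and 2 without MIT-Empty replicates 2 and 4, and ranged from 2 to 4 with 1 library left out. For those counts of 0, edgeR had 4 and 4 factors at an unadjusted p under 0.05, against 1401 of 12311 and 927 of 11041 genes. Counting shared reads once, and leaving out 1 library, it ranged from 1 to 3, with 1 without MIT-BATF replicate 2 and 1 without MIT-Empty replicate 2.

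The 540 calls over all genes became 140 with shared reads counted once, 96 without the contained and 15 without the containing libraries, 259 without MIT-Empty replicates 2 and 4, 1253 by DESeq2 and 903 with no filter, and ranged from 287 to 772 with 1 library left out. With 287 and 321 calls, MIT-Empty replicate 2 and MIT-BATF replicate 2 were the libraries whose absence moved the count by over 1.5 times. The 140 calls became 69 without MIT-Empty replicate 2, 89 without MIT-BATF replicate 2 and 93 without MIT-BATF replicate 4.

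Nr4a1 and Nr4a2, which passed in no setting, changed sign. Nr4a1 was at -0.27 without the containing libraries, -0.11 without MIT-Empty replicates 2 and 4, and -0.21 to 0.17 with 1 library left out. Counting shared reads once put it at -0.21 without MIT-BATF replicate 3, -0.10 without MIT-Empty replicate 2 and -0.0047 without MIT-Empty replicate 5. Nr4a2 was at 0.0855 without the contained and 0.18 without the containing libraries, 0.0165 with no filter, and -0.25 to 0.0743 with 1 library left out. Counting shared reads once put it at 0.0319 without MIT-BATF replicate 5 and 0.0608 without MIT-Empty replicate 3. The causes were not tested.

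The labels do not say that a replicate number marks a shared litter, batch or day. Deviations from the group means of libraries with the same number had correlations from -0.0551 to 0.255 (-0.109 to 0.382 with shared reads counted once), not over 0.1 for every number, and own numbers correlated best for 2 of 5, so the numbers were not taken to pair the libraries. The replicate block gave 474 calls and 3 factors, without Egr1 (adjusted p = 0.0536 from edgeR), and with shared reads counted once 173 calls and 2 factors. No pair of factors passed in any setting by the exact permutation test. Depth limits Tox2 and Egr3, which rest on 0 to 22 and 4 to 123 counts per library.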
